A study of Mus musculus with 8 samples.

Results

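Expression of 10 genes of the Hippo, YAP and TAZ pathway was followed in sorted alveolar epithelial cells of embryonic mouse lungs. The genes were taken by name, with every spot of each: the coactivators Yap1 and Wwtr1 (which encodes TAZ), the DNA-binding partners Tead1, Tead2, Tead3 and Tead4, the regulators Ajuba and Amotl2, and the secreted targets Ccn1 (Cyr61) and Ccn2 (Ctgf). They were 10 of the 24568 genes measured and held 15 of the 43884 named spots. The set was chosen with earlier results of these data known.

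In the Hippo pathway, a kinase cascade phosphorylates YAP and TAZ and keeps them out of the nucleus. When the cascade is slack, as in spread or stretched cells, YAP and TAZ enter the nucleus, bind TEAD factors and switch on genes such as Ccn1 and Ccn2. In the mouse lung, YAP and TAZ are known for their part in the formation of type I alveolar cells (AECI), the thin cells that line the gas exchange surface, as opposed to type II cells (AECII), which make surfactant. The activity of YAP and TAZ is set largely by phosphorylation and location of the proteins, which arrays of RNA do not measure.

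There were 4 groups of 2 biological replicates, each replicate on 1 single-colour array: AECI and AECII sorted from WT lungs and AECI and AECII sorted from mutant lungs. The mutants had Fgfr2b signalling, a growth factor pathway of the lung epithelium, inhibited in vivo between E16.5 and E18.5 (embryonic days). The sources used here do not give the means of inhibition, the alleles and strain of either genotype, the sort markers or any pooling of embryos. Values are log2 signals, on which 1 unit is a doubling of the signal.

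The labelled populations carried their markers. Of 15 AECI markers, 14 were higher in AECI than in AECII in WT, and of 13 AECII markers 12 were lower (limma, adjusted p under 0.05). The mean of the ciliated list was 9.06 to 9.92 in the AECII arrays and 5.15 to 6.09 in the AECI arrays, and that of the club list 10.81 to 11.29 and 7.30 to 8.15, so that these airway markers moved with the AECII label. The mesothelial list averaged 5.30 to 5.48 in AECII and 6.62 to 6.81 in AECI arrays, with 1 of 5 genes, Msln, past the test. The mesenchymal list averaged 5.68 to 7.90 and 5.40 to 7.75, with 0 of 12 genes past the test. It read 7.64 and 5.86 in the replicates of WT AECII and 7.90 and 5.68 in those of Mutant AECII. In AECI it read 5.40 and 6.89 in WT and 5.74 and 7.75 in the mutant, a spread that limits the test. The basal cell list averaged 6.49 to 7.58 in AECII and 7.66 to 11.28 in AECI arrays. In each genotype 1 of its 6 genes, Ngfr, was higher in AECI (3.03 in WT and 2.54 in the mutant, limma adjusted p = 0.0102 and 0.0181). The first WT AECI array stood apart by this list, at 11.28 against 6.49 to 8.15 in the other 7 arrays. Replicates of a group correlated at 0.962 to 0.977 over all genes. In such bulk samples, fewer cells of a type and less RNA per cell cannot be told apart.

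The stretches of DNA just before the start sites of 5 of the genes are shown because they carry the short core to which TEAD factors bind, GGAATG, or CATTCC when read on the other strand. RefSeq promoter windows of the GRCm38.p6 build, 250 bases before to 50 bases after a start, were matched to 7 of the 10 genes by symbol: Yap1, Wwtr1, Tead2, Tead3, Ajuba, Amotl2 and Ccn1. The core occurred on either strand in 8 of the 10 windows of these genes, and in 6 of the 7 genes, against 14.7% of all 32851 windows. Wwtr1 and Tead3 had more than 1 window, and such windows can overlap. The stretches shown lay at chr14:54577662-54577911 (minus strand) for Ajuba, chr9:102717554-102717803 (plus) for Amotl2, chr3:145649986-145650235 (minus) for Ccn1, chr3:57575911-57576160 (minus) for Wwtr1 and chr9:8004597-8004846 (minus) for Yap1. Each is printed 5′ to 3′ on the gene's strand and ends at the base before the start, with the core in capitals.
Ajuba: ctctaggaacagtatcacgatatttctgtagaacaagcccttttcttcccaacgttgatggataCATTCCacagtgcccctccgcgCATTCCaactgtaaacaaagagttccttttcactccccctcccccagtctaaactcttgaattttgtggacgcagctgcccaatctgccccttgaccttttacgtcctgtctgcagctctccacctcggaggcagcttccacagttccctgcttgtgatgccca
Amotl2: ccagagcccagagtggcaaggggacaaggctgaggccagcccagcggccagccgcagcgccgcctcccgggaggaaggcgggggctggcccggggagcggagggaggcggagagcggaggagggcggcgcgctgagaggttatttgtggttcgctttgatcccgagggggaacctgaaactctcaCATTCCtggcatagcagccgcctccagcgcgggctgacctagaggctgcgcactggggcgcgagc
Ccn1: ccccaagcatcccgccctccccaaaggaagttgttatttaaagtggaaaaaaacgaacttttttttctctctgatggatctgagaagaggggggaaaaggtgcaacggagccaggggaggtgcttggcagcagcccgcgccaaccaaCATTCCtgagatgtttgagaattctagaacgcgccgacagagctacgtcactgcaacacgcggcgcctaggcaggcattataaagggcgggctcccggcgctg
Wwtr1: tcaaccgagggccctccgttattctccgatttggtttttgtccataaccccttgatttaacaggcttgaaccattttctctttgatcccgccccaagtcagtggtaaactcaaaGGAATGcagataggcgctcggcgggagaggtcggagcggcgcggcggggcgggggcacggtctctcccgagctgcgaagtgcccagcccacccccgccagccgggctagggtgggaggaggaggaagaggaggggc
Yap1: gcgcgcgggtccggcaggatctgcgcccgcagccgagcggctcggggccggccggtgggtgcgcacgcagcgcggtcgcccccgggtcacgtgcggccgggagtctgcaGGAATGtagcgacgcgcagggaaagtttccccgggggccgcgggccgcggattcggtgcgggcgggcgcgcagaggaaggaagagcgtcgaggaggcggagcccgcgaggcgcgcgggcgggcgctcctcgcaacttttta
Counted from the start site, the core began at position -65 in Amotl2, -103 in Ccn1, -136 in Wwtr1 and -141 in Yap1, while Ajuba held a pair at -186 and -164. The core was not among the letters of the Tead2 window. Of the Tead3 windows, which are not printed, 1 held the core at -182 and another at -123, -114 and again after the start. The remaining Tead3 window did not hold it. The AP-1 motif TGANTCA, found in 7.81% of all windows, and the CArG box of serum response factor, in 1.63%, had 0 matches in the 10 windows. A match is a string of letters and not a measured binding site.

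Of the coactivators, Wwtr1 was higher in AECI in both genotypes. Its log2 signal was 9.18 and 9.08 in WT AECII against 11.64 and 11.50 in WT AECI, and 9.44 and 8.49 in the AECII against 11.60 and 11.71 in the AECI of the mutant. Every AECI array thus lay over 2 units above every AECII array. The log2 fold change from AECII to AECI was 2.44 in WT (SE 0.35, 5.43-fold, limma adjusted p = 0.00957, n = 2 arrays a group) and 2.70 in the mutant (SE 0.35, 6.48-fold, limma adjusted p = 0.00625). Leaving out the first or the second WT AECII array raised the adjusted p of the WT comparison to 0.0588 or 0.0699 (limma), with the fold change at 2.49 and 2.39.

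Yap1, the better known of the coactivators, did not pass the test in either genotype. Its brightest spot read 9.99 and 10.37 in WT AECII against 10.57 and 10.83 in WT AECI, and 9.92 and 10.52 in the AECII against 10.88 and 10.51 in the AECI of the mutant. The AECI arrays lay above the AECII arrays in WT, and the populations overlapped in the mutant. The log2 fold change was 0.52 in WT (95% interval -0.25 to 1.29, limma adjusted p = 0.451) and 0.47 in the mutant (-0.30 to 1.24, limma adjusted p = 0.474). A second, dimmer Yap1 spot pointed the other way, with -0.30 in WT (-1.10 to 0.50) and -0.29 in the mutant (-1.09 to 0.51). Neither spot passed the test, and in the fit of single spots a rise beyond 1.31 units lay outside the intervals of both. Taken array by array over both genotypes, the change of Wwtr1 was 2.07 units above that of Yap1, or 2.86 above that of the second Yap1 spot. The pair was set side by side after its values were seen, so these differences are a description with no test.

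**Figure D1:**
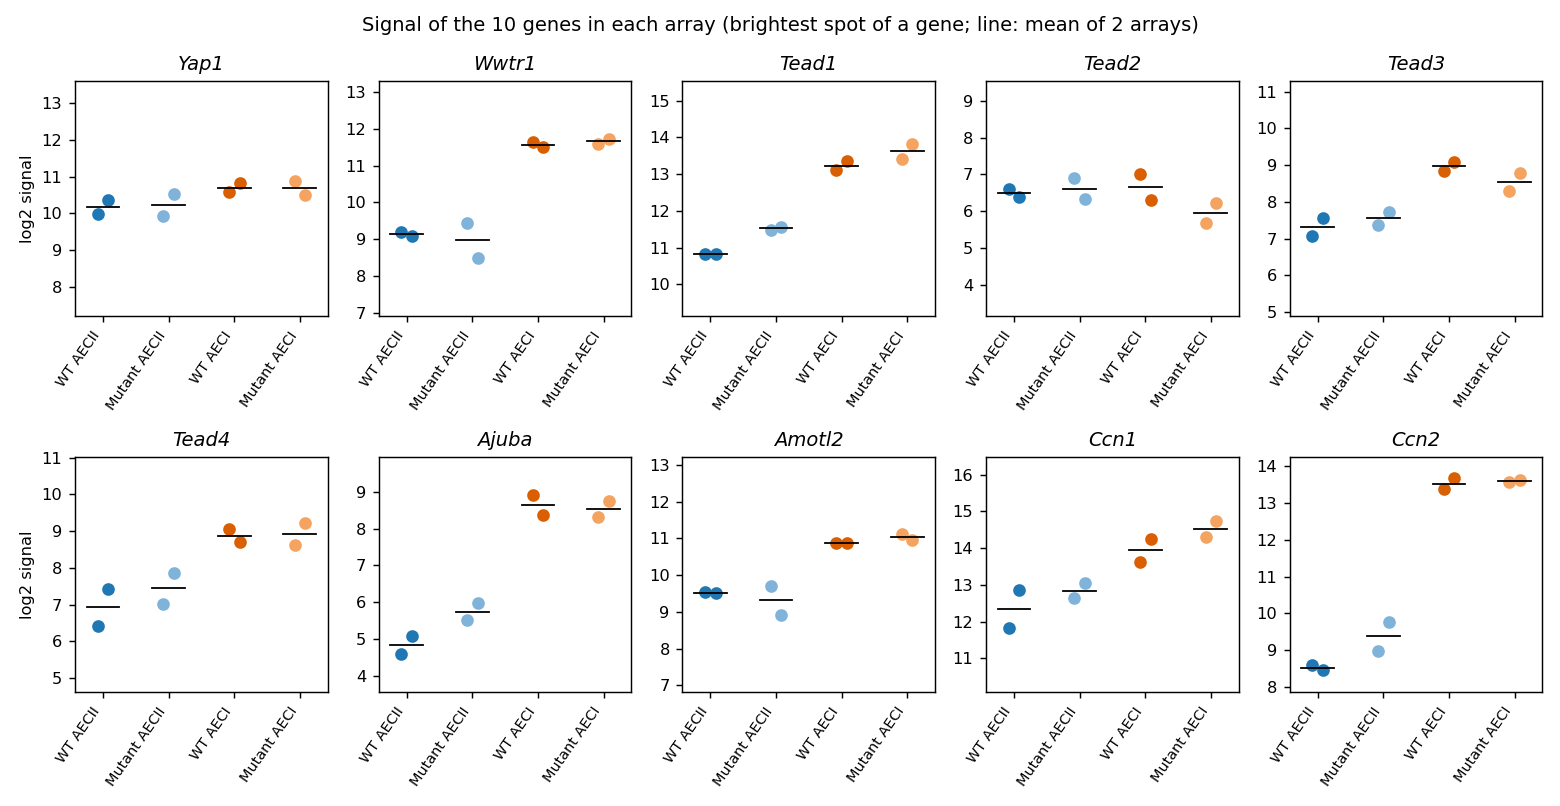
Log2 signal of each of the 10 genes (y axis, brightest spot of a gene, each panel spanning the same number of log2 units around its own values) in the 8 arrays, by group on the x axis. Points are arrays and lines the means of the 2 arrays. The AECI arrays lie above all AECII arrays in 8 panels, the exceptions being Yap1 and Tead2.

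Among the TEAD factors, which carry YAP and TAZ to DNA, 3 were higher in AECI in at least some of the tests and Tead2 was not. Tead1 was higher in both genotypes. Its brightest spot read 10.83 and 10.83 in WT AECII against 13.10 and 13.36 in WT AECI, and 11.49 and 11.57 in the AECII against 13.40 and 13.83 in the AECI of the mutant. The arrays of a group differed by at most 0.44, less than any gap between the populations. From AECII to AECI the log2 fold change was 2.40 in WT (SE 0.27, 5.28-fold, limma adjusted p = 0.00442) and 2.09 in the mutant (SE 0.27, 4.24-fold, limma adjusted p = 0.00624). Both calls held under all 16 alternative settings. Of the other Tead1 spots, the third passed in WT (2.16, limma adjusted p = 0.0245 over all spots) and not in the mutant (1.36, limma adjusted p = 0.102), while the second gave 1.27 and 1.11 (limma adjusted p = 0.071 and 0.0986).

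Tead4 depended on the spot. The brighter spot read 6.42 and 7.43 in WT AECII against 9.05 and 8.71 in WT AECI, and 7.03 and 7.85 in the AECII against 8.61 and 9.23 in the AECI of the mutant. All AECI arrays were again above all AECII arrays, but the replicates of WT AECII were 1.01 apart. The log2 fold changes of 1.95 in WT (95% interval 0.85 to 3.04, limma adjusted p = 0.0548) and 1.48 in the mutant (0.38 to 2.57, limma adjusted p = 0.118) did not pass. The second spot read 6.52 and 6.41 in WT AECII against 9.27 and 9.96 in WT AECI, and 6.37 and 5.65 in the AECII against 9.60 and 9.86 in the AECI of the mutant. That spot was higher in AECI by 3.15 in WT (limma adjusted p = 0.00538 over all spots) and by 3.72 in the mutant (limma adjusted p = 0.00319). Both Tead4 spots carry the same transcript accession, and their places on the transcript were not analysed here.

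Tead3 was measured by 1 spot. It read 7.08 and 7.55 in WT AECII against 8.85 and 9.10 in WT AECI, and 7.38 and 7.72 in the AECII against 8.29 and 8.80 in the AECI of the mutant. The log2 fold change was 1.66 in WT (SE 0.32, 3.16-fold, limma adjusted p = 0.0261) and 1.0 in the mutant (95% interval 0.24 to 1.75, limma adjusted p = 0.124). The populations did not overlap in either genotype, yet the WT call was lost (limma adjusted p 0.0515 to 0.141) when any WT array or either Mutant AECII array was left out.

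Tead2 did not pass in either genotype. It read 6.60 and 6.38 in WT AECII against 7.0 and 6.31 in WT AECI, and 6.90 and 6.33 in the AECII against 5.68 and 6.22 in the AECI of the mutant. The WT populations overlapped, and in the mutant the AECI arrays were the lower ones. The log2 fold changes were 0.16 in WT (95% interval -0.71 to 1.04, limma adjusted p = 0.866) and -0.67 in the mutant (-1.54 to 0.21, limma adjusted p = 0.363). A second Tead2 spot gave -0.23 and -0.05, neither past the test. Over both genotypes, the change of Tead1 was 2.50 units above that of Tead2, that of Tead3 1.58 and that of Tead4 1.97, or 3.69 with the second Tead4 spot. Against the second Tead2 spot these differences were 2.39, 1.47 and 1.86 for the brightest spots of Tead1, Tead3 and Tead4. They too are a description with no test, since Tead2 was taken as the comparator after its values were seen.

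**Figure D2:**
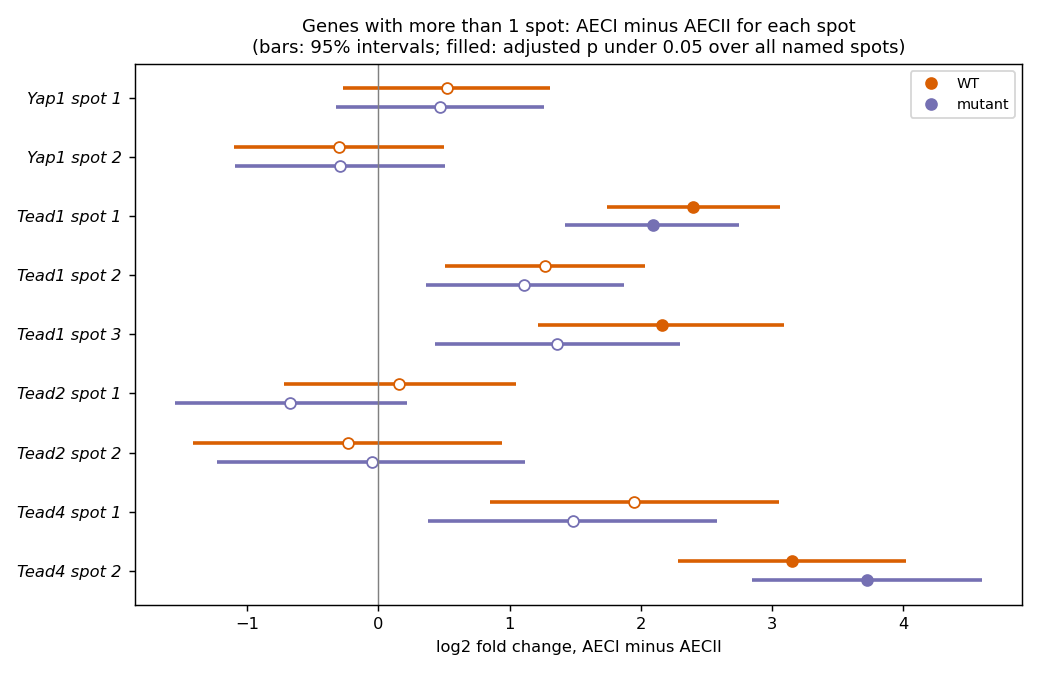
Log2 fold change from AECII to AECI (x axis) for each spot of Yap1, Tead1, Tead2 and Tead4, the genes with more than 1 spot, in WT (orange) and mutant (purple). Bars are 95% intervals and filled points passed the test over all named spots. Spot 2 of Tead4 (3.15 and 3.72) passed while spot 1 (1.95 and 1.48) did not, and the Yap1 spots point in opposite directions without passing.

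Of the regulators, Ajuba was higher in AECI in both genotypes, and Amotl2 passed the test in the mutant. Ajuba encodes a LIM protein that holds back the LATS kinases at cell junctions. It read 4.60 and 5.07 in WT AECII against 8.91 and 8.36 in WT AECI, and 5.50 and 5.98 in the AECII against 8.31 and 8.76 in the AECI of the mutant. The smallest gap between an AECI and an AECII array was over 2 units. Its WT AECII signals lay close to the median of all spots, 5.01, and with no detection limits at hand it is not known whether they were above background, so no fold is given. The measured log2 difference was 3.80 in WT (SE 0.35, limma adjusted p = 0.00255) and 2.79 in the mutant (SE 0.35, limma adjusted p = 0.00564), and both calls held under all 16 alternatives.

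Amotl2 encodes an angiomotin that binds YAP at junctions and is itself a YAP target. It read 9.55 and 9.50 in WT AECII against 10.88 and 10.87 in WT AECI, and 9.70 and 8.92 in the AECII against 11.12 and 10.96 in the AECI of the mutant. The populations did not overlap in either genotype. The log2 fold change was 1.35 in WT (95% interval 0.60 to 2.10, limma adjusted p = 0.0532, not passed) and 1.73 in the mutant (SE 0.32, 3.32-fold, limma adjusted p = 0.0209). Leaving out either Mutant AECI array or the second Mutant AECII array ended the mutant call (limma adjusted p 0.0699 to 0.108), as did a fit of only the arrays compared (0.0745).

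Ccn2 showed the largest difference of the 10 genes in both genotypes, and Ccn1 did not pass the test in either. Both encode secreted matricellular proteins that are widely used as readouts of YAP and TAZ. Ccn2 read 8.59 and 8.45 in WT AECII against 13.37 and 13.67 in WT AECI, and 8.98 and 9.77 in the AECII against 13.57 and 13.62 in the AECI of the mutant. The AECI arrays lay within 0.30 of each other and over 3 units above the highest AECII array. The log2 fold change was 5.0 in WT (SE 0.33, 32.0-fold, limma adjusted p = 0.00152) and 4.22 in the mutant (SE 0.33, 18.6-fold, limma adjusted p = 0.00148), and both calls held under all 16 alternatives.

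Ccn1 was bright in both populations, at 11.83 and 12.87 in WT AECII against 13.62 and 14.26 in WT AECI, and 12.63 and 13.05 in the AECII against 14.29 and 14.74 in the AECI of the mutant. No AECI array fell below an AECII array, but the replicates of WT AECII were 1.04 apart. The log2 fold changes of 1.59 in WT (95% interval 0.56 to 2.62, limma adjusted p = 0.0861) and 1.67 in the mutant (0.64 to 2.71, limma adjusted p = 0.0699) did not pass. Ccn1 is also an immediate early gene that cell dissociation can raise. A list of 14 other immediate early and dissociation genes averaged 12.45 to 12.84 in AECII and 12.51 to 12.75 in AECI arrays, and 1 of them, Ier3, was higher in AECI (1.22 in WT and 1.36 in the mutant, limma adjusted p = 0.029 and 0.019).

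In all, 5 of the 10 genes were higher in AECI in WT (Wwtr1, Tead1, Tead3, Ajuba and Ccn2) against 2.87% of all genes, and 0 were lower, against 4.14%. In the mutant 5 were higher as well (Wwtr1, Tead1, Ajuba, Amotl2 and Ccn2), against 2.93% of all genes, and 0 were lower, against 4.87%. These shares include dim genes, while the 10 genes were brighter on average than 55.9% (Tead2) to 97.9% (Ccn1) of all genes. With the lowest 50% of genes left out, 8 of the 10 were higher in WT, against 8.2% of the genes tested. The share in the mutant was then 8.46%. Over all genes the mutant comparison held 720 higher and 1197 lower calls, or 928 and 988 with each array centred on its median. The median log2 fold change of the 10 genes was 1.80 in WT and 1.70 in the mutant, beside 0.00 and 0.02 over all genes. Averaged over both genotypes, a comparison added after the values were seen, 8 of the 10 passed, all but Yap1 and Tead2, against 5.8% of all genes. In the same 8, all 4 AECI arrays lay above all 4 AECII arrays, against 9.6% of all genes. By spot, 7 of 15 were higher in WT (2.72% of all named spots) and 6 in the mutant (2.88%). As the 10 genes were chosen with earlier results of these data known, these counts and medians are a description. Their excess over the shares of all genes is not independent support for the set.

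**Figure D3:**
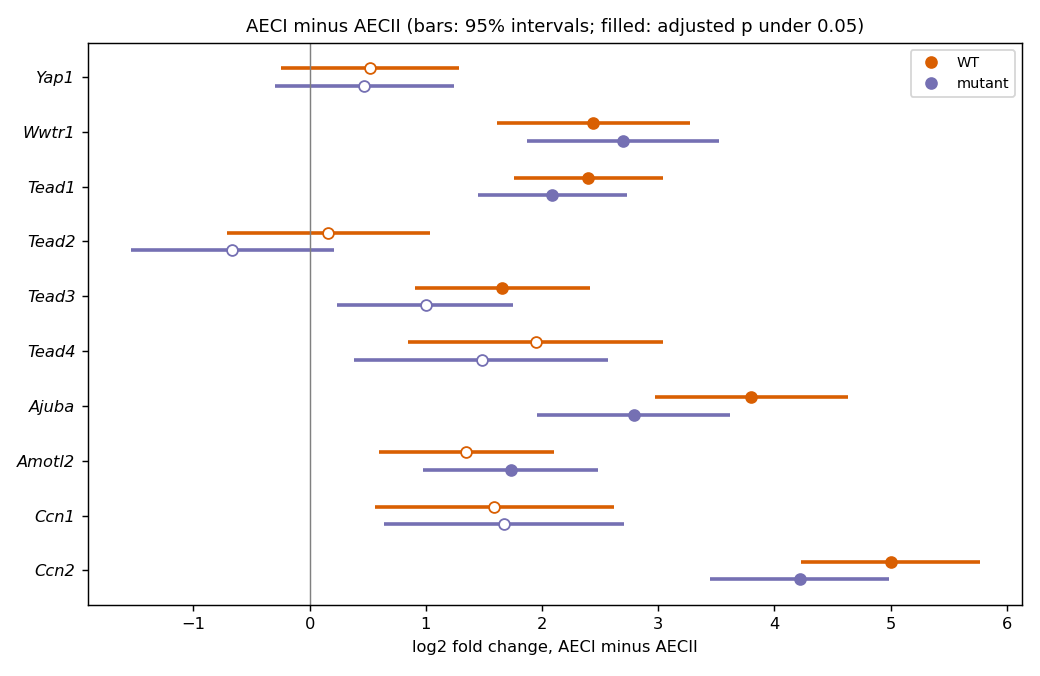
Log2 fold change from AECII to AECI (x axis) of the 10 genes in WT (orange) and mutant (purple), with 95% intervals as bars. Filled points passed at an adjusted p under 0.05. Ccn2 (5.0 and 4.22) and Ajuba (3.80 and 2.79) lie farthest right, and the intervals of Yap1 and Tead2 span 0 in both genotypes.

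Without the first WT AECI array, the one with the high basal list, 4 of the 10 genes passed in WT. Ccn2 was then 5.15 (limma adjusted p = 0.0105), Ajuba 3.52 (0.015), Tead1 2.53 (0.0193) and Wwtr1 2.37 (0.0449), while Tead3 at 1.78 no longer passed (limma adjusted p = 0.0698). That array enters the mutant comparison only through the shared spread, and 5 of the 10 genes passed there without it. The part of the airway, basal, mesothelial and mesenchymal markers in the differences between the populations was not tested.

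None of the 10 genes passed the test between mutant and WT. The counts were 0 of 10 in AECII, against 0.0122% of all genes, and 0 of 10 in AECI, against 0.0163% (limma, adjusted p under 0.05). By the brightest spot of each gene, the bounds of the 95% intervals reached 1.74, for Ajuba in AECII, and -1.58, for Tead2 in AECI. With 2 arrays a group, changes within the intervals remain compatible with the data. The bounds are not limits of detection, and larger changes could also fail the test. Yap1 differed by 0.04 in AECII (95% interval -0.73 to 0.81) and -0.01 in AECI (-0.78 to 0.76), and Wwtr1 by -0.17 (-1.0 to 0.66) and 0.09 (-0.74 to 0.92).

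In AECII, 3 genes reached an unadjusted p under 0.05, against 4.41% of all genes. They were Tead1, at 0.70 (95% interval 0.06 to 1.34), Ajuba, at 0.91 (0.08 to 1.74), and Ccn2, at 0.86 (0.08 to 1.63), each with a limma adjusted p of 0.998. The value of Ajuba rests on its low AECII signals. The other Tead1 spots gave 0.40 (-0.36 to 1.16) and 1.15 (0.22 to 2.09), so that 1 of them had an interval that held 0 (limma adjusted p = 0.999 for each over all spots). The further spots of Yap1, Tead2 and Tead4 ran from -0.46 to 0.02 in AECII, with intervals that all held 0. None of the 15 spots passed between mutant and WT in either population. For Tead1, Ajuba and Ccn2, by the brightest spot, both Mutant AECII arrays were above both WT AECII arrays, which held for 17.6% of all genes. The 15 AECI markers were on the same side, with 15 of 15 above 0 in Mutant AECII, 0 past the test and a median of 1.20. The AECI list averaged 9.66 and 9.42 in WT AECII and 10.39 and 10.87 in Mutant AECII, and all 14 immediate early and dissociation genes were also above 0, at a median of 0.37. The part of either in the 3 values was not tested.

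In AECI, 0 of the 10 genes reached an unadjusted p under 0.05, against 7.64% of all genes. Tead1, Amotl2 and Ccn1 had both mutant arrays above both WT arrays (17.7% of all genes) and Tead2 and Tead3 below them (17.8%). Their values ran from -0.71 for Tead2 (95% interval -1.58 to 0.16) to 0.58 for Ccn1 (-0.46 to 1.61). The difference between the mutant effects in AECI and AECII passed for 0 of 10 genes and 0.0% of all genes (limma), and 0 of 10 reached an unadjusted p under 0.05, against 4.71% of all genes. For Ajuba it was -1.01 (-2.19 to 0.17, limma adjusted p = 0.999), again with the low AECII signals in it. The AECII marker list averaged 11.67 and 11.49 in WT AECI against 10.51 and 10.84 in Mutant AECI, with 1 of 13 genes above 0, 0 past the test and a median of -0.96, and its part in the AECI values was not tested. The genotypes also differed in sex-linked genes: Xist read 12.44 to 13.17 in the 4 WT arrays and 3.50 to 5.14 in the 4 mutant arrays, and the Y-linked Uty 2.72 to 3.24 and 6.71 to 7.47. Genotype and sex-linked expression cannot be told apart here.

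**Figure D4:**
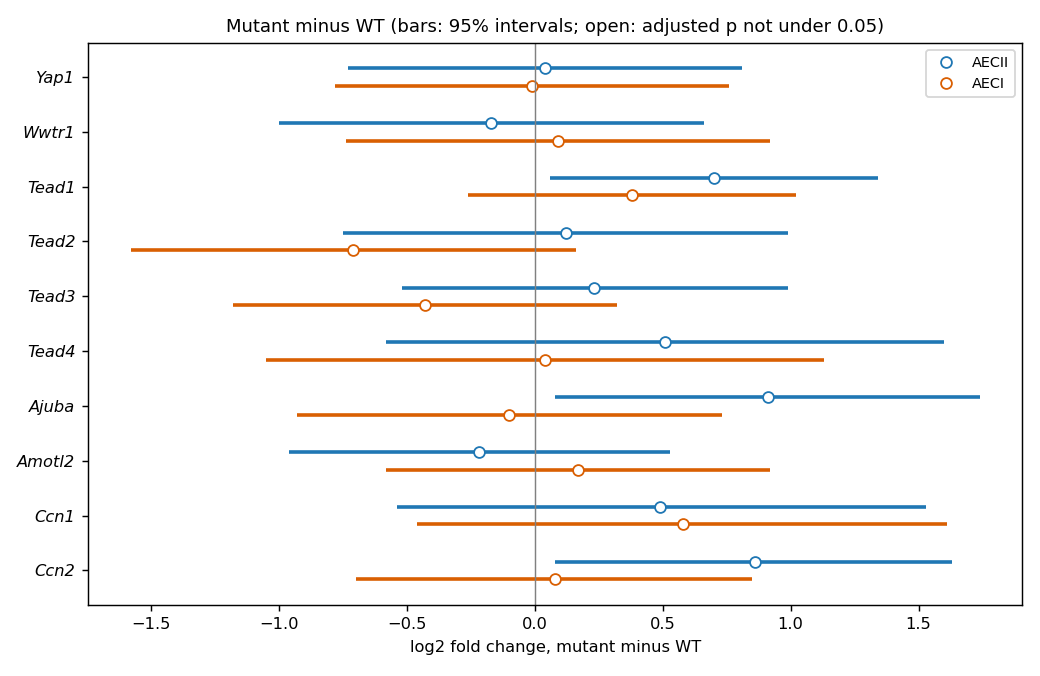
Log2 fold change from WT to mutant (x axis) of the 10 genes in AECII (blue) and AECI (orange), with 95% intervals as bars. All points are open because none passed the test. The AECII intervals of Tead1, Ajuba and Ccn2 lie just above 0, from 0.06, 0.08 and 0.08.

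Further genes of the pathway were read from lists, which were also chosen with earlier results of these data known. Of 19 other YAP and TAZ target genes, 6 were higher in AECI in WT and 4 in the mutant, against 2.87% and 2.93% of all genes, and 0 were lower in either, against 4.14% and 4.87%. The list's median was 1.06 in WT and 0.22 in the mutant. Tgfb2, a secreted growth factor, differed most among those that passed, from 7.38 and 6.91 in WT AECII to 10.83 and 11.16 in WT AECI. Its log2 fold change was 3.85 in WT and 3.31 in the mutant (limma adjusted p = 0.00168 and 0.0018). Fjx1, a homologue of the fly Four-jointed kinase, gave 2.70 and 1.62 (limma adjusted p = 0.0052 and 0.0281). F3, tissue factor of the clotting cascade, gave 1.82 and 2.15 (limma adjusted p = 0.00894 and 0.00458). Most of the list did not pass, 13 of 19 in WT and 15 of 19 in the mutant. In WT 12 of the 19 lay above 0 and in the mutant 11, against 50.2% and 51.0% of all genes. Crim1 went the other way, at -3.24 in WT and -3.13 in the mutant, without passing.

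Upstream in the cascade, 4 of 19 kinases and scaffolds were higher and 1 was lower in WT AECI, with a median of 0.14, and in the mutant 3 were higher and 1 was lower. The shares of higher calls among all genes were 2.87% in WT and 2.93% in the mutant, and those of lower calls 4.14% and 4.87%, so that the 1 of 19 on the lower side was near the background. Lats2, which encodes the kinase that phosphorylates YAP and TAZ and is itself among their targets, was 1.82 higher in WT and 1.61 in the mutant (limma adjusted p = 0.0129 and 0.019). It is in both lists. Wwc2, of the KIBRA family of scaffolds that activate LATS, was 2.38 and 2.16 higher (limma adjusted p = 0.00794 and 0.00981), and Frmd6, a FERM-domain protein, 2.31 and 1.23 (0.00459 and 0.0379). The kinase gene Taok3 was the lower one, by -1.23 in WT and -1.41 in the mutant (limma adjusted p = 0.0406 and 0.0233). The members that rose thus included negative regulators of YAP and TAZ.

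Of 17 angiomotin, LIM and junction partners, 5 were higher in WT AECI and 3 in the mutant, against 2.87% and 2.93% of all genes, and 0 were lower (4.14% and 4.87%). Tjp1, which encodes the tight junction scaffold ZO-1, was 2.09 and 2.18 higher (limma adjusted p = 0.0086 and 0.00659), and Mpp5, which encodes the polarity scaffold PALS1, 1.64 and 2.03 (0.0213 and 0.00934). Amot, the founding angiomotin, was 2.30 higher in WT (limma adjusted p = 0.0299) and gave 1.93 in the mutant without passing (0.0526). Of the 17 genes, 14 lay above 0 in each genotype, against 50.2% and 51.0% of all genes. Limd1 went the other way, at -1.85 in WT and -0.65 in the mutant, and so did Pard3, at -1.12 and -0.83, all without passing. Averaged over both genotypes, Limd1 was lower in AECI (-1.25, limma adjusted p = 0.0475). Of 7 TEAD cofactors, 0 passed in either genotype. Vgll4, which encodes a competitor of YAP for TEAD, gave -1.90 in WT and -1.73 in the mutant (limma adjusted p = 0.0708 and 0.0889). The 4 other measured CCN family genes did not pass in WT, and Ccn5 was lower in Mutant AECI (-1.72, limma adjusted p = 0.0482, against 4.87% of all genes lower), at signals of 2.43 to 4.70 in the mutant arrays. Averaged over both genotypes, 6 of the 19 other targets, 5 of the 19 kinases and scaffolds, 8 of the 17 partners and 0 of the 7 cofactors were higher (5.8% of all genes). In each of these lists 1 gene was lower, and the share of lower calls over all genes is not given for this average. Of the 4 CCN genes, 1 was higher and 0 were lower.

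**Figure D5:**
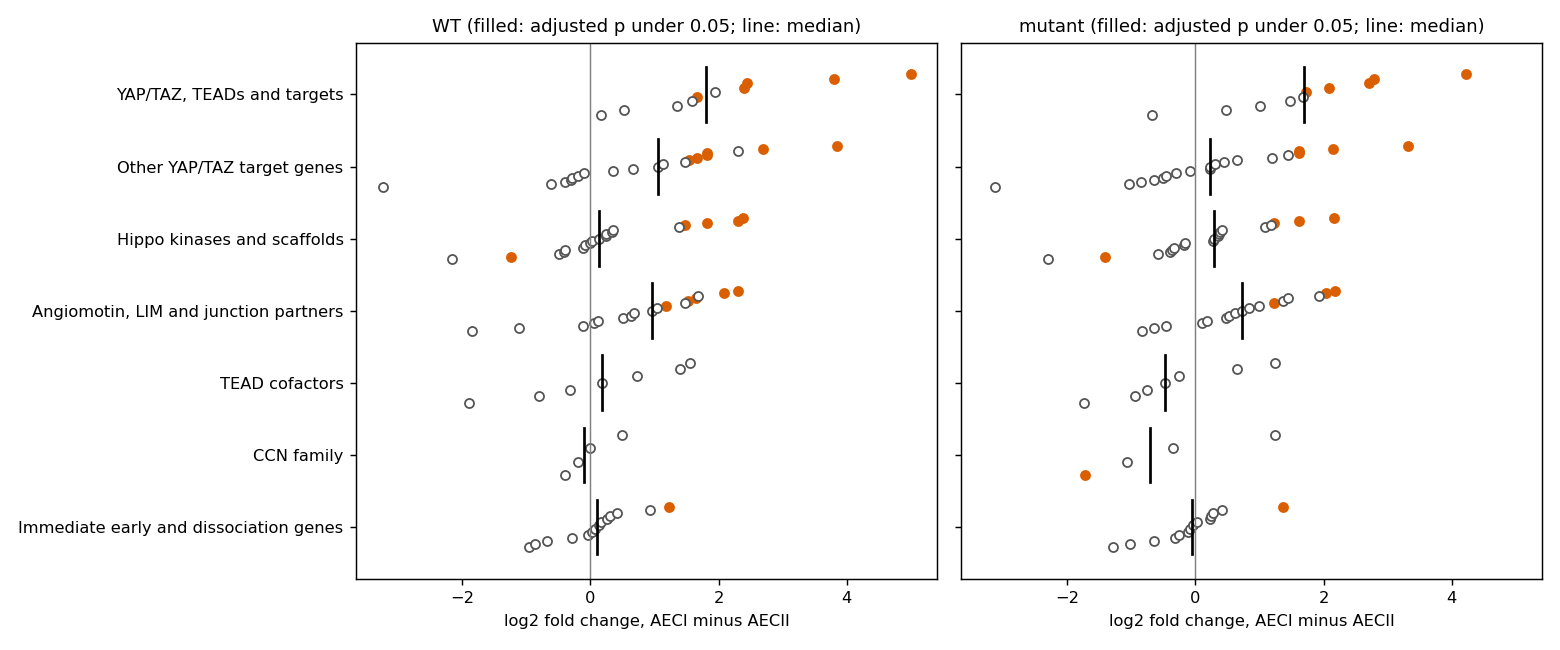
Log2 fold change from AECII to AECI (x axis) of the 10 genes (top row) and of the genes of 6 further lists, in WT (left) and mutant (right). Each point is a gene, filled where it passed the test, and vertical lines are medians. The 10 genes have medians of 1.80 and 1.70, against 1.06 and 0.22 for the other YAP and TAZ target genes.

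The order of the arrays could be set beside that of other genes, as a description over 8 arrays that share 1 split into AECI and AECII. Among genes at or above the median signal, those most like Tead1 were Tecrl, Tfdp2 and Smad7 (Pearson r of 0.996 each), followed by Nedd4l and Krt7 (0.995). Those most like Ajuba were Arhgap22 (0.994), Stk36, Asxl1 and Zfp703 (0.993) and Tnfrsf4 (0.992). Within the pathway, Tead1 ran with Ccn2 (0.984) and Ajuba (0.976), less with Yap1 (0.732), and not with Tead2 (-0.363). The median over all genes was 0.014. With 4 arrays a population, no such value was computed within a population.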

How the data were processed

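Total RNA of sorted AECI and AECII was amplified and labelled with Cy5 for 8 single-colour arrays. The authors deposited log2 signals, normalized between arrays before deposit: the 8 arrays shared all quantiles, with a median of 5.01 and an upper quartile of 8.06. The submitters' processing notes name limma. Background correction, detection limits, slides and versions: not given in the sources used here. Of 62976 spots, 43941 had 1 gene symbol in the platform annotation, 0 had several and 19035 had none. The accessions of 33708 spots matched a gene of the RefSeq table of GRCm38.p6, through which 1424 symbols were updated. Named spots with a missing value (57) were left out, and each gene was represented by its brightest spot on average, which left 24568 genes with no filter on dim ones.

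Groups came from the labels. A mean per group was fitted to all 8 arrays with limma 3.58.1 in R 4.3.3 (lmFit, eBayes, two-sided), and p-values were adjusted over all genes by Benjamini-Hochberg, with calls at an adjusted p under 0.05. Residual degrees of freedom were 4 and prior ones 2.87, and the median residual SD was 0.392. The fit was tested on simulated data, in which large changes were mostly called and small ones were not. Their noise was drawn independently from the fit's own prior. The simulation thus checked the code and not whether the fit's assumptions hold for these arrays. Spots were also fitted singly over all 43884 named spots. The number of arrays limits the precision. Normalization to the same quantiles removes any change in total RNA. The replicates are biological per the series design, and p-values measure the spread between them.

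The 10 genes and all lists were chosen with earlier results of these data known, and so were the contrasts between genes and the averages over genotypes or populations. Of each list, at most 4 genes with the smallest p among those past the threshold were eligible to be named per comparison, or the 2 with the smallest p where none passed. Crim1 was named outside this rule, as the lowest value of its list. For likeness, the 5 genes with the highest Pearson r to Tead1 and to Ajuba were taken. Alternatives covered normalization, the filter on dim genes, the choice of spot, the variance prior, array weights, the arrays fitted, the replicate block and each array left out.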

Additional observations from a re-analysis of the deposited data

How the results depend on the processing

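The count of the 10 genes past the threshold between AECI and AECII in WT rose from 5 to 8 with the lowest 50% of genes left out (8.2% of the genes tested were then higher), with a trended and robust prior (4.38%), at an adjusted p under 0.1 (4.47%) and, chosen after seeing the data, averaged over both genotypes (5.8%), which also gave 8 against 5 in the mutant. Leaving out single arrays gave 3 to 5 in WT, with 3 without either WT AECII array, and 4 to 5 in the mutant. With the replicate number as a block the counts were 7 and 6, against 2.31% and 2.18% of all genes higher. Replicate differences over all genes were hardly correlated between groups (-0.07 to 0.03), which cannot settle whether the numbers pair the samples. The mesenchymal list was higher in the first array of both AECII groups and in the second array of both AECI groups. The block changed no call from passed to not passed. Between mutant and WT, and for the difference of the effects, the count was 0 under every alternative run.

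Over all genes, the 1722 calls in WT became 2587 with the trended prior, 822 with only the arrays compared and 527 to 1565 with single arrays left out, and the 1917 calls in the mutant became 2904, 1287 and 626 to 1932. Centring arrays on their medians shifted all genes by 0.10 in WT, 0.17 in the mutant, and 0.11 between mutant and WT in AECI.

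Signs turned for values that had not passed. The mean of all spots gave -0.03 for Tead2 between the WT populations, and 0.05 for Tead4 in the difference of effects. Median centring gave 0.10 for Yap1 and 0.01 for Ajuba between mutant and WT in AECI, and 0.02 for Yap1 in the difference of effects. With single arrays left out, Tead2 between the WT populations ran from -0.18 to 0.51. Between mutant and WT in AECII, Yap1 ran from -0.26 to 0.34, Wwtr1 from -0.64 to 0.31, Tead2 from -0.16 to 0.40, Tead3 from -0.00 to 0.47, Amotl2 from -0.61 to 0.18 and Ccn1 from -0.03 to 1.01. In AECI, Yap1 ran from -0.19 to 0.17, Tead4 from -0.27 to 0.35, Ajuba from -0.38 to 0.18 and Ccn2 from -0.07 to 0.23. The difference of effects ran from -0.35 to 0.25 for Yap1, -0.22 to 0.73 for Wwtr1, -0.97 to 0.03 for Tead4, -0.01 to 0.77 for Amotl2 and -0.44 to 0.61 for Ccn1. The causes were not tested.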
